A study of Mus musculus with 16 samples.

Results

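The genes described here are 8 genes by which plasmacytoid dendritic cells (pDCs) are recognized or held in check: *Siglech*, *Ccr9*, *Ly6d*, *Pacsin1*, *Lag3*, *Runx2*, *Ptprs* and *Cd300c*. Members were found by symbol, as every noncontrol probe that the array's own annotation assigns to 1 of these genes, whatever its value. That gave 14 probes of 39429 on the array, for 8 of 24335 symbols. Of the 14 probes, 10 from 7 genes were bright enough in at least 1 group to be tested, and *Lag3* was not.

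Gene expression was measured in 2 progenitors sorted from the bone marrow (BM) of female C57/Bl6 mice after lineage depletion: the macrophage-dendritic cell progenitor (MDP) and the common dendritic cell progenitor (CDP), which arises from the MDP and can still give rise to pDCs. The PyMT groups came from mice in which PyMT B6, a cell line from the MMTV-PyMT mammary tumor model on the same background, had been grown in the mammary fat pad to 1.5 cm, and the Normal groups from tumor-free mice of matched age. Each of the 4 groups (MDP Normal, MDP PyMT, CDP Normal, CDP PyMT) had 4 samples, numbered 2 to 5, of 2 mice each, and each sample was hybridized in 1 color to its own array. The tumors all stem from 1 cell line, and RNA was taken from the sorted population as a whole, so fewer cells of a type and less RNA per cell cannot be told apart.

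pDCs make large amounts of type I interferon when their endosomal receptors for viral RNA and DNA are engaged. They develop from dendritic progenitors under the E protein Tcf4 (E2-2), with Spib, Bcl11a, Irf8 and Runx2 acting beside it and the inhibitor Id2 acting against it. Several of the genes here encode the surface proteins by which pDCs are sorted: Siglec-H, a sialic acid-binding lectin that signals through the adaptor DAP12 and is used as a pDC marker in mice, Ccr9, the receptor for the chemokine Ccl25, and Ly6d, which marks progenitors with lymphoid and pDC potential. *Ptprs* encodes an inhibitory receptor tyrosine phosphatase of pDCs, *Cd300c* an activating receptor of the CD300 family, *Lag3* a receptor for MHC class II that limits activation, and *Pacsin1* an adaptor of endocytosis and the cytoskeleton. *Runx2*, a Runt-domain transcription factor, takes part in the late development of pDCs and their exit from the BM, and is also the leading regulator of bone-forming cells.

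Because the 2 *Siglech* probes and the 2 tested *Runx2* probes gave different results, the sequences that tell them apart are shown, with the *Cd300c* probe as the third gene of the same pattern. Positions are those the array files print for mouse genome build mm9, and bases are written 5′ to 3′ on the strand of the gene. The capitals mark a 14-base stretch in the first *Siglech* probe and a start codon (ATG) in *Cd300c* and in the second *Runx2* probe, and the lines without capitals show the probe part alone.
Siglech, probe A_55_P2141013, bases 6 to 35: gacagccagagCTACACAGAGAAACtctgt
Siglech, probe A_55_P2165790, bases 1 to 30: acaacagttaaattcccttgcagagacatc
Cd300c, probe A_55_P2023562, bases 1 to 60: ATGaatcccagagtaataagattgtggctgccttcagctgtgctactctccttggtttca
Runx2, probe A_52_P55876, bases 13 to 60: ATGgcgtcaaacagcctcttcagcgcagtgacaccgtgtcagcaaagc
Runx2, probe A_52_P460545, bases 1 to 60: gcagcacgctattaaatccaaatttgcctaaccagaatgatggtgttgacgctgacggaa

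The *Siglech* probes lie 262 bases apart, start to start, at chr7:63034088-63034147 for the first and chr7:63033826-63033885 for the second, both on the plus strand and both assigned to the same transcript. The first holds a stretch typical of B1 repeats, the abundant short interspersed elements of rodent genomes. A run of at least 15 bases of it also occurs in 15 probes of other genes, whereas the second shares no such run with a probe of another gene. Of the other tested member probes, the 5′ *Ptprs* probe shares a run of at least 15 bases with 3 probes of other genes. The first is called the repeat-bearing and the second the unique *Siglech* probe below (with and without the repeat in the plots). The *Runx2* probe A_52_P55876 (chr17:44951128-44951187, minus strand), the 5′ probe, has a start codon at its base 13 and no stop in the 48 bases from there on, the start of the isoform made from the distal promoter of the gene. It lies 206203 bases from A_52_P460545 (chr17:44744925-44744984, minus strand), called the shared coding probe here, which lies downstream of it on the gene's strand and is open over 57 bases from its base 3. The *Cd300c* probe (chr11:114821672-114821731, minus strand) begins with a start codon and has no stop in its 60 bases. No annotation of build mm9 was used here, so exon numbers are not given.

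Levels are given on the log2 scale relative to each array's 75th percentile, so that 0 is a probe as bright as that percentile and −1 is 2-fold dimmer, and they are not compared between probes. A difference was called when limma gave a Benjamini-Hochberg FDR under 0.05 over the 27433 tested probes and a fold above 1.5. With 4 arrays against 4, an exact two-sided permutation test has 70 relabelings and a smallest p of 0.0286. The arrays sat on 4 slides, of which slides 2 and 3 held all 4 groups. Between 58.8% and 71.5% of the probes of an array were well above background, and replicates of a group correlated with r from 0.904 to 0.977. All 8 markers of the sorted progenitors (*Kit*, *Flt3*, *Csf1r*, *Cx3cr1*, *Cd34*, *Spn*, *Irf8* and *Spi1*) were well above background on every array.

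*Siglech* rose from MDP to CDP in tumor-free mice and was lower in CDPs of tumor-bearing mice by its unique probe, whereas its repeat-bearing probe passed the test in no comparison. The unique probe read −1.42, −0.77, −1.77 and −0.83 in CDP Normal (replicates 2 to 5) and −3.48, −3.29, −4.25 and −5.48 in CDP PyMT. All 4 CDP PyMT samples were below all 4 CDP Normal samples, and the lowest of them, replicate 5, was the only CDP sample not well above background. In CDPs the level fell by 2.93 on the log2 scale with tumor (SE 0.60, 7.61-fold, adjusted p = 0.0259 by limma, exact permutation p = 0.0286).

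In MDPs the unique probe was not well above background on any of the 8 arrays: it read −6.06, −5.37, −5.64 and −6.99 in MDP Normal and −4.68, −6.95, −6.94 and −4.96 in MDP PyMT. Being undetected, these 8 values were given no order. In tumor-free mice *Siglech* was at least 16.2-fold higher in CDPs than in MDPs (measured means −1.20 ± 0.48 and −6.02 ± 0.71, SD, n = 4 each; adjusted p = 0.000297 by limma). In PyMT mice the same step was at least 1.88-fold (means −4.12 ± 1 and −5.88 ± 1.23) and did not pass the test (adjusted p = 0.0876), with replicate 5 of CDP PyMT inside the range of the MDPs. Both bounds set the CDP mean against the dimmest signal that counts as detected on each MDP array, or the probe's own where that is higher. The probe entered the test through the CDP groups alone, where it is high, so the call between progenitors of tumor-free mice is a description.

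The repeat-bearing *Siglech* probe was well above background on 16 of 16 arrays and followed the slide. Its 4 lowest readings, 2.92, 3.02, 3.25 and 3.12, came from the 4 arrays of slide 1, which carried 2 MDP PyMT samples and 1 sample each of MDP Normal and CDP Normal. On the other slides it read between 3.94 and 5.24 in every group. Slide accounted for 89% of its variance and group for 16%, against 8.08% and 86.2% for the unique probe (shares that are not additive, as slide and group are not fully balanced). Its tumor change was 0.38 in CDPs (95% interval −0.61 to 1.36) and −0.15 in MDPs (−1.14 to 0.83), and with slide fitted as a block both signs turned, to −0.06 and 0.28.

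**Figure D1:**
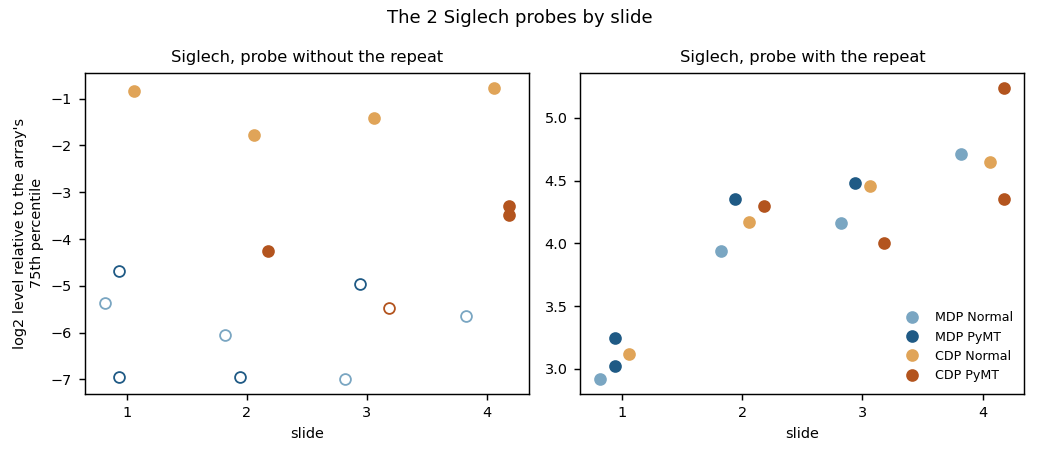
Level of the unique (left) and the repeat-bearing (right) *Siglech* probe on each of the 16 arrays, by slide (x axis) and on the log2 scale relative to the array's 75th percentile (y axis). Colors mark the 4 groups and open circles arrays on which the probe was not well above background. The 4 arrays of slide 1 hold the 4 lowest values of the repeat-bearing probe, from 2.92 to 3.25, while the unique probe is highest in CDP Normal on every slide.

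*Runx2* was lower in CDPs of tumor-bearing mice by the shared coding probe, with the smallest adjusted p among the member probes in that comparison. This probe read −0.21, 0.26, −0.19 and 0.19 in CDP Normal and −2.36, −4.02, −3.49 and −1.93 in CDP PyMT. The groups did not overlap, and the CDP PyMT samples (SD 0.97) spread more widely than the CDP Normal samples (SD 0.25). The level fell by 2.96 with tumor (SE 0.37, 7.80-fold, adjusted p = 0.00154 by limma).

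In MDPs the shared coding probe read −2, −1.52, −2.06 and −1.65 in Normal and −2.38, −3.19, −2.95 and −3.22 in PyMT mice. Every PyMT sample was again below every Normal sample, with a change of −1.13 (SE 0.37, adjusted p = 0.351 by limma), which did not pass the test after adjustment over all probes. In tumor-free mice *Runx2* was 3.53-fold higher in CDPs than in MDPs (1.82, SE 0.37, adjusted p = 0.00904). In PyMT mice the 2 progenitors had like means, −2.95 ± 0.97 and −2.94 ± 0.39 (SD, n = 4 each), and the 95% interval of their difference ran from −0.82 to 0.79.

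The 5′ *Runx2* probe did not show the change of the shared coding probe in CDPs. It read −2.47, −1.99, −3.18 and −2.63 in CDP Normal and −1.54, −2.89, −4.03 and −3.10 in CDP PyMT, with the highest and the lowest value both in the tumor-bearing group. Its change was −0.32 (95% interval −1.39 to 0.75). In MDPs its means were −3.37 ± 0.44 (Normal) and −4.44 ± 0.87 (PyMT), a change of −1.07 (adjusted p = 0.481 by limma), with 1 of the MDP PyMT arrays not well above background. Taken on each array, the shared coding probe minus the 5′ probe was 2.25 to 2.99 in CDP Normal and −1.13 to 1.17 in CDP PyMT, with no overlap (exact permutation p = 0.0286, 0.114 after Benjamini-Hochberg over 12 such tests on 3 genes, chosen after seeing the values). In MDPs this difference was 0.87 to 2.32 and 0.09 to 2.47, and overlapped. The third *Runx2* probe, designed on a noncoding transcript, was well above background on 4 of 16 arrays and was not tested.

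*Runx2* is also expressed by bone-forming cells, and whether such cells had a part in its change was not tested. The summed level of the 9 bone-forming and stromal markers (*Sp7*, *Bglap*, *Bglap2*, *Ibsp*, *Alpl*, *Col1a1*, *Col1a2*, *Cxcl12* and *Lepr*), in multiples of the array's 75th percentile, was 0.375 to 1.08 in CDP Normal and 0.455 to 1.57 in CDP PyMT. In MDPs it was 0.458 to 1.33 (Normal) and 0.271 to 0.635 (PyMT). *Lepr* was not well above background on any array, and 0 of the 6 markers that could be tested passed limma's test in either tumor comparison, with 0 at an unadjusted p under 0.05. Of all genes, 1.81% passed it in CDPs and 0.0741% in MDPs.

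*Cd300c* followed the unique *Siglech* probe and the shared coding *Runx2* probe in the 2 comparisons that involve CDP Normal. It read 1.12, 0.94, 0.77 and 1.75 in CDP Normal and −0.51, −1.49, −1.84 and 0.31 in CDP PyMT. Replicate 5 of CDP PyMT came nearest to the tumor-free range and still lay below its lowest sample. In CDPs the level fell by 2.03 with tumor (SE 0.38, 4.09-fold, adjusted p = 0.0181 by limma).

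In MDPs *Cd300c* read −1.19, −1.12, −1.36 and −0.80 in Normal and −1.87, −2.16, −2.13 and −1.43 in PyMT mice, without overlap. That change, −0.78 (SE 0.38, adjusted p = 0.5), did not pass the test. In tumor-free mice the gene was 4.80-fold higher in CDPs than in MDPs (2.26, SE 0.38, adjusted p = 0.00262 by limma), and in PyMT mice the difference was 1.01 (adjusted p = 0.121) with overlapping groups.

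*Ptprs* was lower in tumor-bearing mice by a small amount, in both progenitors and by both of its probes, and it differed little between the progenitors. The 3′ probe, A_55_P1991985 (chr17:56551855-56551914, minus strand), read 2.42, 2.35, 2.33 and 2.28 in CDP Normal and 1.84, 1.52, 1.59 and 2.05 in CDP PyMT. In MDPs it read 2.62, 2.29, 2.42 and 2.59 (Normal) and 1.94, 2.13, 1.94 and 2.28 (PyMT). Neither pair of groups overlapped, though in MDPs the highest PyMT and the lowest Normal sample were 2.28 and 2.29. Its changes were −0.60 in CDPs (SE 0.15, adjusted p = 0.0541) and −0.41 in MDPs (SE 0.15, adjusted p = 0.383), and neither was called. In CDPs it was called with slide as a block (−0.63, adjusted p = 0.0101), after quantile normalization (0.0184), in the deposited table (0.0245) and among probes above background on all 16 arrays (0.0369).

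The 5′ *Ptprs* probe, A_55_P2029905 (chr17:56585270-56585328, minus strand), changed by −0.71 in CDPs (SE 0.15, 1.64-fold, adjusted p = 0.0304 by limma), which was called. It changed by −0.67 in MDPs (SE 0.15, adjusted p = 0.169), which was not. Its means were −0.54 ± 0.19 in CDP Normal, −1.25 ± 0.16 in CDP PyMT, −0.61 ± 0.23 in MDP Normal and −1.28 ± 0.12 in MDP PyMT (SD, n = 4 each), with every PyMT sample below every Normal sample of its progenitor. Between CDPs and MDPs the 5′ probe differed by 0.08 in Normal mice (95% interval −0.25 to 0.40) and by 0.04 in PyMT mice (−0.29 to 0.36).

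**Figure D2:**
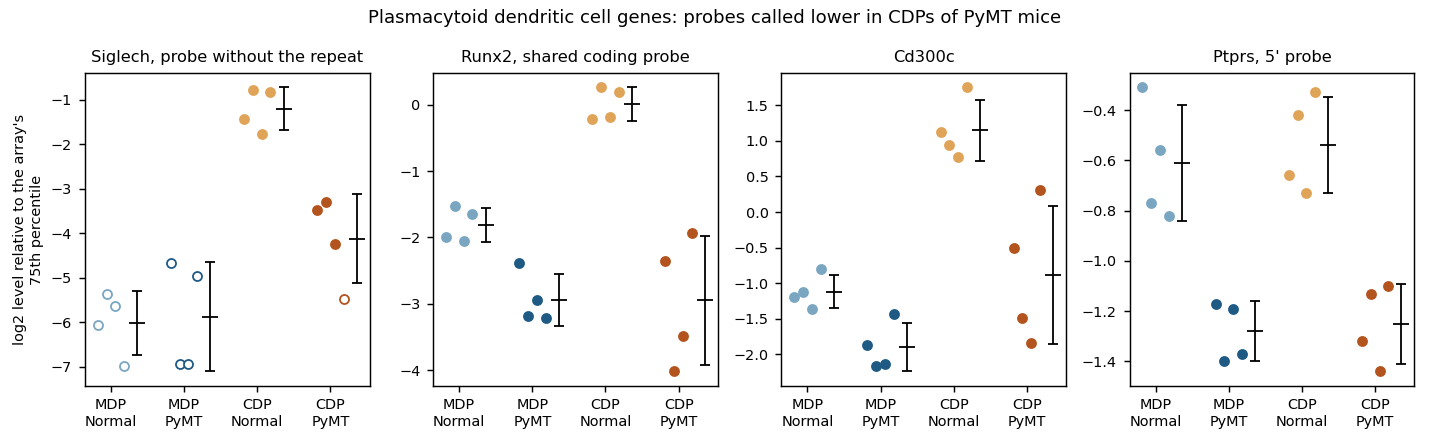
Level on each array (points, replicates 2 to 5 from left to right within a group) for the 4 probes that were called lower in CDPs of PyMT mice, on the log2 scale relative to the array's 75th percentile. Bars give the mean ± SD of the 4 arrays and open circles arrays on which the probe was not well above background. CDP Normal stands above the other 3 groups for *Siglech*, *Runx2* and *Cd300c*, while *Ptprs* is lower in both PyMT groups. The y axes differ between panels.

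*Ly6d*, *Ccr9* and *Pacsin1* did not pass the test in any comparison. *Ly6d* (chr15:74592551-74592610, minus strand) was well above background on 16 of 16 arrays, with means of −1.46 ± 0.86 (MDP Normal), −2.25 ± 0.82 (MDP PyMT), −0.70 ± 0.37 (CDP Normal) and −1.10 ± 0.58 (CDP PyMT). The groups overlapped in each comparison, and its 3 lowest values, −3.16, −2.75 and −2.72, were the 3 MDP samples of slide 1. Its tumor changes were −0.40 in CDPs (95% interval −1.38 to 0.58) and −0.79 in MDPs (−1.77 to 0.19).

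*Ccr9*, by its probe at chr9:123690334-123690393 (plus strand), was well above background on 8 of 8 CDP arrays and 4 of 8 MDP arrays. It read −2.52, −3.85, −4.48 and −4.88 in CDP Normal and −3.06, −2.27, −2.55 and −4.65 in CDP PyMT. The groups overlapped, and the change in CDPs was 0.80 (95% interval −0.94 to 2.53, adjusted p = 0.767 by limma). In PyMT mice *Ccr9* differed between CDPs and MDPs by 2.05 (SE 0.81, adjusted p = 0.133), a difference that did not pass the test.

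*Pacsin1*, by its probe at chr17:27845530-27845589 (plus strand), was well above background on 6 of 8 CDP and 2 of 8 MDP arrays. Its values in CDPs ran from −6.79 to −3.66 in Normal and from −6.57 to −3.36 in PyMT mice, with the lowest of each group on slide 2. The change in CDPs was 0.28 (95% interval −1.49 to 2.05). With slide as a block its difference between CDPs and MDPs in Normal mice, 1.11, had an adjusted p of 0.0308 by limma, against 0.639 without it. That block gave 2923 calls among all 27433 tested probes, against 1665 without it. The *Pacsin1* probe entered the test through the CDP groups alone, where it is high, so this call is a description. It was well above background on 1 of 4 MDP Normal arrays, so the size of the difference is uncertain.

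The other 3 untested probes were not well above background on any of the 16 arrays: that of *Lag3* and the second probes of *Ccr9* and *Pacsin1*. The *Lag3* probe read between −7.49 and −6.95, and the files place it on no chromosome. No level or change is given for *Lag3*.

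**Figure D3:**
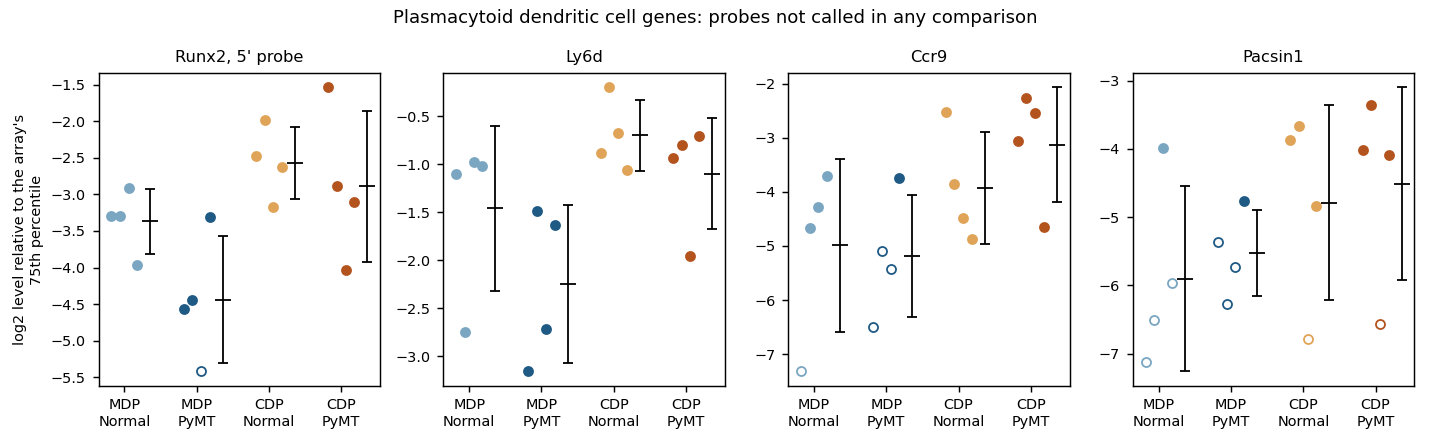
Level on each array (points, replicates 2 to 5 from left to right within a group) for the 5′ *Runx2* probe, *Ly6d*, *Ccr9* and *Pacsin1*, on the log2 scale relative to the array's 75th percentile. Bars give the mean ± SD of the 4 arrays and open circles arrays on which the probe was not well above background. The groups overlap in both tumor comparisons for *Ly6d*, *Ccr9*, *Pacsin1* and the 5′ *Runx2* probe. The y axes differ between panels.

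In the comparison of CDPs from PyMT and Normal mice, 4 of the 10 tested member probes were called, 4 of them lower and 0 higher, where 1.79% of all tested probes were called in either direction and 0.988% lower. The 4 probes belong to 4 genes. With each gene taken by its tested probe of highest mean, 2 of 7 genes were called (*Runx2* and *Cd300c*), against 1.81% of all genes. The groups did not overlap for 5 of the 10 probes, all lower, against 11.1% of all tested probes in either direction and 5.34% lower. The median change of the 10 probes was −0.50, and that of all tested probes 0.08. The members were chosen with earlier results of these data known, so a count above these shares is a description only. Of the 10 probes, those of *Pacsin1* and the unique one of *Siglech* passed the filter through CDPs only.

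The calls in CDPs depended on the spread shared by the 4 groups: fitted with the CDP arrays alone, 0 of 10 were called (adjusted p = 0.0517 for *Runx2*, 0.0661 for *Siglech*, 0.125 for *Cd300c* and 0.123 for *Ptprs*). With 1 array left out at a time, *Runx2* was called in 8 of 8 fits, *Siglech* and *Cd300c* in 4 of 8 each and the 5′ *Ptprs* probe in 2 of 8. The count was 1 without replicate 2 or 5 of CDP Normal or replicate 4 of CDP PyMT, and 2 without replicate 3 of either group. Of all 27433 tested probes, 55 were called in either direction with the CDP arrays alone, and 153 to 578 with 1 array left out. On the 3 slides that held both CDP groups the change was −2.48, −4.06 and −2.62 for *Siglech*, −3.30, −1.72 and −3.45 for *Runx2*, −2.61, −0.81 and −1.95 for *Cd300c*, and −0.71, −0.44 and −0.80 for the 5′ *Ptprs* probe.

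In MDPs, 0 of the 10 probes were called by limma, where 0.062% of all tested probes were. At an unadjusted p under 0.05 there were 4, both *Ptprs* and both tested *Runx2* probes. The methods' t-test at that level called 3, and 1015 of all 27433 tested probes. The groups did not overlap for 4 probes, all lower, against 5.22% of all tested probes in either direction and 2.42% lower: the shared coding *Runx2* probe, both *Ptprs* probes and *Cd300c*. The median change was −0.54, beside −0.11 for all tested probes. On the 3 slides that held both MDP groups the change was −1.15, −1.19 and −1.57 for *Runx2* and −0.41, −1.09 and −0.55 for the 5′ *Ptprs* probe.

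No member probe passed the test of whether the tumor change itself differed between CDPs and MDPs, a test that 0.0146% of all tested probes passed. The difference, CDPs minus MDPs, was −1.83 for the shared coding *Runx2* probe (SE 0.53, adjusted p = 0.749) and −1.25 for *Cd300c* (SE 0.54, adjusted p = 0.749). With the unique *Siglech* probe (adjusted p = 0.749) these were the 3 with an unadjusted p under 0.05, but no size is given for *Siglech*, since it was not well above background on any MDP array. For the 5′ *Ptprs* probe it was −0.04 (95% interval −0.50 to 0.42). On slides 2 and 3 the difference was −2.12 and −0.15 for *Runx2* and −1.64 and −0.18 for *Cd300c*. A fall confined to CDPs was therefore not shown for *Siglech*, *Runx2* or *Cd300c*.

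From MDP to CDP in Normal mice, 3 of 10 member probes were called, all higher in CDPs: *Siglech*, *Runx2* and *Cd300c*. The unique *Siglech* probe entered the test through the CDP groups alone, where it is high, so its call is a description. Of all tested probes, 6.07% were called in this comparison and 2.93% higher. The median over the 10 probes was 0.93, and over all tested probes 0.02. The 3 calls held in each of 8 fits with 1 array left out, and within the 4 slides the difference was 1.44 to 2.31 for *Runx2* and 1.92 to 2.87 for *Cd300c*. This comparison and the tumor comparison in CDPs share the 4 CDP Normal arrays, so their values are not independent: at least 16.2-fold higher and 7.61-fold lower for *Siglech*, and on the log2 scale 1.82 and −2.96 for *Runx2*, 2.26 and −2.03 for *Cd300c*.

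Within PyMT mice, 0 of 10 member probes were called between CDPs and MDPs by limma, where 7.24% of all tested probes were. At an unadjusted p under 0.05 there were 6, and the methods' t-test at that level called 1, *Ccr9*. Leaving out replicate 5 of MDP PyMT or replicate 4 of CDP PyMT gave 2 calls, and leaving out replicate 5 of CDP PyMT gave 1. The 5′ *Runx2* probe, 1.55 higher in CDPs (SE 0.50, adjusted p = 0.0755 by limma), and the unique *Siglech* probe were called without replicate 5 of MDP PyMT. The unique *Siglech* probe was not well above background on any MDP array and entered the test through the CDP groups alone. Its calls in these fits are therefore descriptions.

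**Figure D4:**
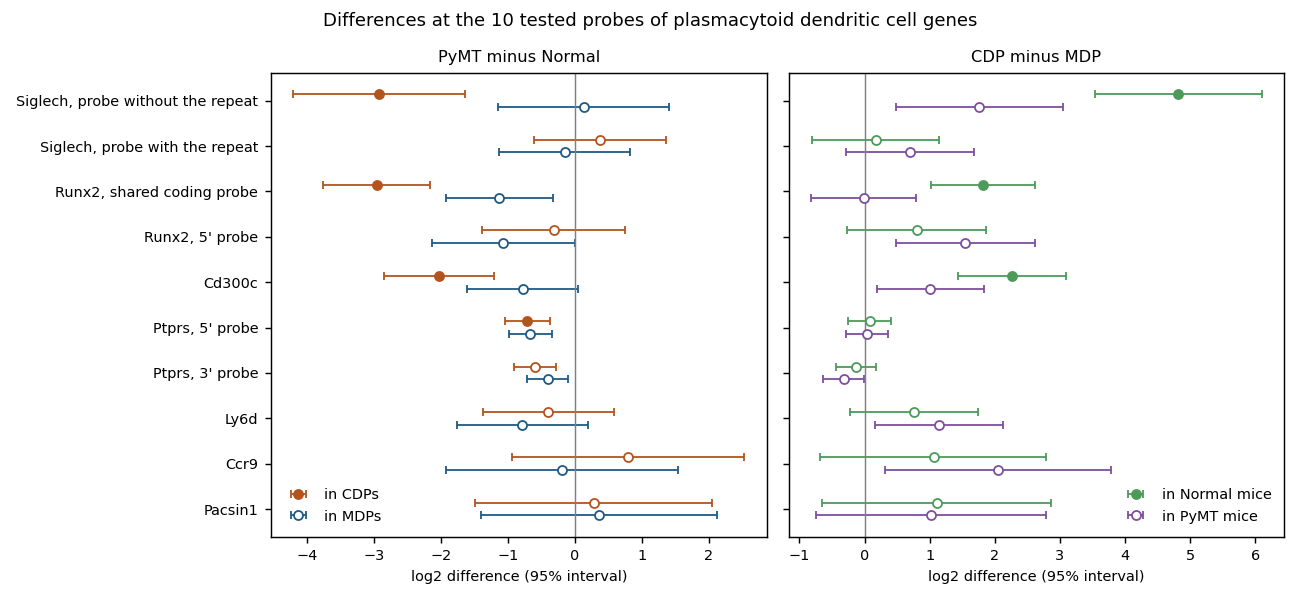
Differences at the 10 tested probes on the log2 scale, with 95% intervals from the limma fit of all 16 arrays: PyMT minus Normal within each progenitor (left) and CDP minus MDP within Normal and PyMT mice (right). Filled points were called and open points were not. The intervals of *Siglech* (unique probe), *Runx2* (shared coding probe) and *Cd300c* lie below 0 on the left and above 0 on the right in the comparisons that involve CDP Normal. The unique *Siglech* probe was not well above background on any MDP array, so its differences that involve MDPs are not measures of size.

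The transcription factors that govern pDCs were read from a list of 15 genes, all tested, each by its tested probe of highest mean. With tumor in CDPs, 0 were called higher and 2 lower, beside 1.81% of all genes. *Spib*, an Ets factor of pDCs and B cells, fell by 3.13 (SE 0.61, adjusted p = 0.021 by limma). Its probe was well above background on 4 of 4 CDP Normal arrays and on 2 of 4 CDP PyMT arrays, and it entered the test through CDP Normal alone, the group where it is high, so its call is a description and the size of its change is uncertain. *Bcl11a*, a zinc-finger factor needed for pDC development, fell by 0.85 (SE 0.19, adjusted p = 0.0338). *Tcf4* itself changed by −0.77 (SE 0.19, adjusted p = 0.0542), *Zeb2*, which represses Id2, by −0.57 (adjusted p = 0.53), *Irf8* by −0.02 (adjusted p = 0.979) and *Id2* by 0.69 (adjusted p = 0.75), none of which passed. The list's median was −0.38, beside 0.08 for all genes.

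In MDPs, 0 of the 15 factors were called by limma (0.0741% of all genes), 1 had an unadjusted p under 0.05, and *Spib* was not well above background on any MDP PyMT array. From MDP to CDP in Normal mice 5 were called higher and 0 lower (6.22% of all genes in either direction). *Spib* (4.15, adjusted p = 0.00103) was again tested through CDP Normal alone and was well above background on 2 of 4 MDP Normal arrays. *Irf7*, the interferon-inducing factor of pDCs, was higher by 2.80 (adjusted p = 0.0131), *Bcl11a* by 1.11 (0.00229) and *Cbfa2t3*, a corepressor, by 1.03 (0.000745). *Id2* was at least 5.38-fold higher (adjusted p = 0.00695), being not well above background on any MDP Normal array. *Id2* was tested through the CDP groups alone, where it is high, so its calls between progenitors are descriptions. In PyMT mice *Irf7* (3.66), *Cbfa2t3* (0.76) and *Id2* (3.80) were called higher in CDPs (7.3% of all genes called). *Irf7* was well above background on 2 of 4 MDP PyMT arrays and *Id2* on 1 of 4, so these 2 sizes are uncertain. *Spib* (1.34, adjusted p = 0.174 by limma) and *Bcl11a* (0.23, adjusted p = 0.377) were not called.

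**Figure D5:**
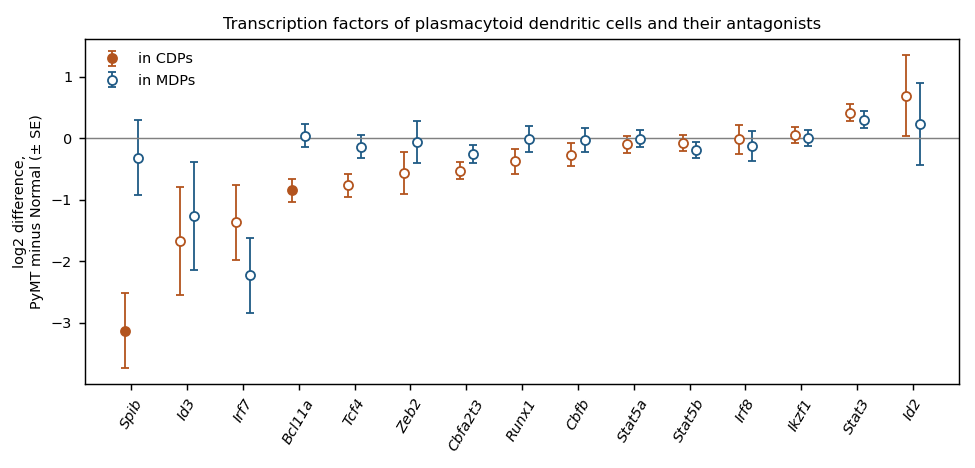
Tumor change (PyMT minus Normal, log2 scale, ± SE from limma) of 15 transcription factors of pDCs and their antagonists in CDPs and MDPs, ordered by the change in CDPs. Filled points were called and open points were not. *Spib* and *Bcl11a* are the 2 factors called, both lower in CDPs.

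The list of nucleic acid sensing, 15 genes that carry the signal from endosomal Toll-like receptors to interferon, had 1 call with tumor in CDPs, where 1.81% of all genes were called. *Ctsl*, a lysosomal protease, rose by 1.50 (SE 0.35, adjusted p = 0.0466), and the list's median was 0.06. From MDP to CDP in Normal mice, where 6.22% of all genes were called, *Irf5* (1.55) and *Pld4* (0.99), an endolysosomal nuclease, were called higher. In PyMT mice, where 7.3% were, *Irf5* (1.44), *Pld4* (1.11) and *Tlr9* (1.09), the receptor for unmethylated DNA, were called higher. Of the 6 genes of the chain that Siglec-H signals through (*Tyrobp*, which encodes DAP12, *Syk*, *Plcg2*, *Blnk*, *Btk* and *Pik3ap1*), 0 were called in either tumor comparison. Of all genes, 1.81% were called in CDPs and 0.0741% in MDPs. At an unadjusted p under 0.05 there was 1 of the 6 in CDPs and 0 in MDPs. *Pik3ap1*, an adaptor of PI3 kinase, was 1.13 lower in CDPs than in MDPs of PyMT mice (adjusted p = 0.0133).

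Of 26 further surface and marker genes of pDCs, 23 were tested, and with tumor in CDPs 0 were called higher and 2 lower, beside 1.81% of all genes. *Atp1b1*, a subunit of the sodium pump, fell by 3.5 (SE 0.59, adjusted p = 0.01), and *Bst2*, which encodes the pDC antigen PDCA-1, fell by 0.69 (SE 0.15, adjusted p = 0.038). The list's median was −0.17. From MDP to CDP in Normal mice *Rnase6* (3.14), *Upb1* (3), *Smim5* (2.53), *Bst2* (0.80) and *Grn* (0.74) were called higher (6.22% of all genes called in either direction). In PyMT mice 7 were called higher (7.3% of all genes called in either direction), of which *Upb1* (3.4), *Cxcr3* (3.17, with 2 of 4 MDP PyMT arrays well above background), *Smim5* (2.82), *Rnase6* (2.72), *Ly6a* (0.93) and *Nrp1* (0.83) are given here, and *Bst2* (0.16, adjusted p = 0.444) was not. *Cxcr3* was tested through the CDP groups alone, where it is high, so its call is a description.

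Relatives of the members moved both ways. Of 28 paralogs, 26 were tested, and the shares of all genes called in each comparison are those given above. With tumor in CDPs *Siglecg*, an inhibitory Siglec of B cells, fell by 1.81 (SE 0.38, adjusted p = 0.0296), and *Cd300lf*, an inhibitory receptor of the CD300 family, rose by 1.92 (SE 0.23, adjusted p = 0.0011), opposite to *Cd300c*. From MDP to CDP *Cd300lf* was higher by 1.07 in Normal and 2.37 in PyMT mice, and *Ccr2* by 1 and 0.80. In PyMT mice *Siglecf* (−1.98) and *Runx3* (−0.59), another Runt-domain factor, were lower in CDPs. With tumor in MDPs limma called 0 genes of the sensing, marker and paralog lists (0.0741% of all genes), with 5, 6 and 4 genes at an unadjusted p under 0.05.

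Markers of other cell types were summed in the same way as those of bone-forming cells, and their part in the changes above was not tested. In CDPs the 12 neutrophil-lineage markers summed to 39.0 to 55.4 in Normal and 73.4 to 105 in PyMT mice, with *Lcn2* (2.70), *Mmp8* (1.87) and *Elane* (1.12) called higher. *Ltf* (−0.45), *Camp* (−0.65), *Ngp* (−0.25) and *Retnlg* (−0.27) were lower and the remaining markers higher, without a call. The sum is led by its brightest markers, *Mpo*, *Prtn3* and *Elane*. In MDPs that sum was 74.0 to 104 and 78.1 to 133, with *Lcn2* (2.17) called higher. The 12 B-lineage markers, which matter for *Ly6d*, *Spib* and *Bcl11a*, summed to 6.80 to 8.74 in CDP Normal and 6.65 to 8.37 in CDP PyMT, and *Ms4a1* was not well above background on any array. The brightest, *Cd79b*, had means of 2.86 and 2.77, so these sums say little of the dimmer markers. *Vpreb3* was well above background on 3 CDP Normal and 0 CDP PyMT arrays, without a call (adjusted p = 0.0784 by limma). *Cd79a* (0.26), *Igll1* (0.39) and *Rag1* (0.46) were higher with tumor, also without a call.

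The 12 markers of T and NK cells summed to 3.18 to 6.01 in CDP Normal and 5.12 to 7.22 in CDP PyMT, and to 15.2 to 18.6 in the MDP groups. *Nkg7*, the brightest of them in MDPs, was called lower in CDPs than in MDPs (−3.12 in Normal and −2.78 in PyMT mice). *Cd3d*, *Cd3e*, *Cd5* and *Lck* were not called between the progenitors. With tumor in CDPs *Klrd1* was called lower (−4.56, well above background on 4 CDP Normal arrays and 1 CDP PyMT array). Of the other tested markers, *Klrb1c* (−0.23) was lower, without a call. *Cd3d* (1.35), *Cd3e* (0.73), *Prf1* (0.53), *Nkg7* (0.51), *Ncr1* (0.14), *Cd5* (0.13) and *Lck* (0.12) were higher, also without a call. *Klrd1* entered the test through CDP Normal alone, the group where it is high, so its call is a description and the size of its change is uncertain. Markers of conventional dendritic cells summed to 22.3 to 29.4 (CDP Normal) and 14.4 to 24.8 (CDP PyMT), with *Xcr1* not well above background on any array and *Cd209a* called lower (−3.25). Monocyte and macrophage markers (9 of 11 on the array) summed to 12.3 to 22.3 and 19.8 to 29.1, and erythroid markers to 2.97 to 12.8 and 1.98 to 4.58. Limma made 0 calls in CDPs for either list (2 and 4 genes at an unadjusted p under 0.05), where 1.81% of all genes were called. The gate's own markers summed to 77.0 to 92.3 in CDP Normal and 74.5 to 78.7 in CDP PyMT, with *Kit* called lower (−1.34, adjusted p = 0.00441).

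Likeness of pattern was measured as Pearson's r over the 16 arrays, which share slides and groups, so these values are descriptions only. For the repeat-bearing *Siglech* probe the 5 most alike of 20145 other genes were *Gm10856* (0.989), *Pign* (0.985), *Slc35e2* (0.984), *Cat* (0.978) and *Zfp791* (0.978). The *Gm10856* probe holds the same 14 bases that are capitalized above, and the other 4 hold a 10-base run of CA or TG repeats. Of all 39429 probes, 0.586% hold 1 of these. For the unique *Siglech* probe, added after seeing the data, the 5 most alike were *Notch2* (0.903), *Tpm2* (0.9), *Grk3* (0.899, listed as *Adrbk2*), *Tdrd7* (0.887) and *Tagap* (0.886), and 0 of these 5 probes hold either sequence. With slide means removed these 5 had r from 0.901 to 0.915, and 5 other genes stood highest: *Csf1r* (0.936), *Kctd12* (0.935), *Selplg* (0.931), *Cd48* (0.929) and *Dock10* (0.929), so the leading genes depended on how slides were treated. Among the other member probes, r with the unique *Siglech* probe was 0.79 for *Cd300c*, 0.67 for the 5′ and 0.64 for the shared coding *Runx2* probe, 0.40 for the 5′ and −0.03 for the 3′ *Ptprs* probe.

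Promoter windows from RefSeq (build GRCm38.p6, 250 bases before to 50 after a gene's start) were found for 6 of the 8 members, in 7 windows, and not for *Ly6d* and *Lag3*. They are shown because *Siglech*, *Cd300c* and *Runx2* were called in the same directions in the 2 comparisons that share CDP Normal, and because Tcf4 binds E-box sites and Runx2 Runt sites. For *Runx2* the calls are those of the shared coding probe, and the isoform that its window belongs to was not determined. Within CDP PyMT the 3 did not move together: replicate 5 was lowest for *Siglech* (−5.48) and highest for *Runx2* (−1.93) and *Cd300c* (0.31). Searched on both strands, CAGGTG was found in the windows of *Siglech*, *Cd300c* and *Ccr9*, and in 20.2% of all 32851 windows. TGTGGT was found in those of *Siglech*, *Cd300c*, *Pacsin1* and *Runx2*, and in 16.8% of all. CAGCTG (16.3% of all) and GAGGAAGT (3.20%) were found in none of the 7, and GAAA repeated after a gap of 2 bases (3.44%) in that of *Cd300c*. Such a match is a description of the letters and no evidence of binding, and *Ccr9*, which holds CAGGTG, passed no test here. The stretches that hold a match follow, with it in capitals (CAGGTG or its reverse complement CACCTG in the first 3, ACCACA, the reverse complement of TGTGGT, in the last).
Siglech, chr7:55768084-55768183, plus strand: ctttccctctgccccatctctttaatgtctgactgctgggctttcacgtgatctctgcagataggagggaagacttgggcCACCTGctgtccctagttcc
Cd300c, chr11:114960508-114960607, minus strand: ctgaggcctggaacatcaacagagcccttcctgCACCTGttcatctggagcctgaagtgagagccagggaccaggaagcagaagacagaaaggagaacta
Ccr9, chr9:123767111-123767210, plus strand: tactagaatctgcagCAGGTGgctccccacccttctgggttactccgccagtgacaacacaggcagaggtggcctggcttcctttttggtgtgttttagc
Runx2, chr17:44814653-44814752, minus strand: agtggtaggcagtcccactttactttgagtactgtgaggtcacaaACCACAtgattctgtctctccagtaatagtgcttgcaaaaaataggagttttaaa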

How the data were processed

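RNA of 16 sorted samples had been hybridized to 16 one-color (Cy5) Agilent mouse arrays, and the scanner output of Feature Extraction 11.5.1.1 was deposited as intensity per spot. The processed intensity, which the authors' scanner software had already background-corrected, was used: control and outlier spots were left out, spots of a probe were averaged, and the log2 value minus the array's 75th percentile was taken. A probe entered the test if any group had 3 or more arrays with it well above background (27433 of 39429) with limma 3.58.1 in R 4.3.3 (package data.table, version 1.17.8), with 1 mean per group over all 16 arrays, Benjamini-Hochberg FDR under 0.05 and a fold above 1.5. The script was tested on simulated data. Genes are described by all their probes, and other lists by the tested probe of highest mean. Of list genes, those called and the leading regulators are named.

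The log2 values of the deposited table, which lists 26793 probes and 11 of the 14 member probes, matched quantile-normalized log2 signals of the same arrays (all 16 columns correlated best with the array of their own sample, r at least 0.9998), with column medians from 10.22 to 10.33. It served as an alternative. The others were normexp background correction, quantile normalization, another scaling, other filters, slide or replicate number as a block, the groups compared alone, the methods' t-test and leaving out each array. The members and lists were chosen with earlier results of these data known. Likeness to the unique *Siglech* probe and differences between the probes of a gene were added after seeing the data. The repeat sequences searched for in the probes were not fixed beforehand either. The number of arrays limits the precision, and nothing in the labels ties the replicate numbers to shared mice or days. Each sample pooled 2 mice, so p-values measure the spread between pools.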

Additional observations from a re-analysis of the deposited data

Results flagged for a closer look

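*Ly6d* in replicate 3 of MDP Normal read −2.75 on the log2 scale, far below the other 3 samples of its group, which read −1.10, −0.98 and −1.02. The gap to the nearest sample was 0.936 of the group's range, above Dixon's 95% critical value for 4 samples. It was the 1 such sample among 40 groups of 4 (10 probes in 4 groups), and chance marks about 1 in 20. The array lay on slide 1, as did the MDP PyMT samples with the lowest *Ly6d* values. Whether the slide had a part in this was not tested.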

How the results depend on the processing

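The count of member probes called lower in CDPs with tumor, 4 of 10, fell to 0 when the CDP arrays were fitted alone and to 0 by the methods' t-test after Benjamini-Hochberg, and ran from 1 to 5 with 1 array left out. It was 5, the 3′ *Ptprs* probe being added, with slide as a block, after quantile normalization, in the deposited table and by the methods' t-test at an unadjusted p under 0.05. Of all 27433 tested probes, 271 were called lower in the fit used above, 29 with the CDP arrays alone and 87 to 330 with 1 array left out. The number was 647 with slide as a block, 292 after quantile normalization and 1279 by the unadjusted t-test. In the deposited table it was 240 of 26793. In MDPs the methods' t-test at an unadjusted p under 0.05 called 3 member probes, and 1015 of all tested probes. Between CDPs and MDPs of PyMT mice it called 1, and 4109 of all. Leaving out 1 array there gave 0 to 2 member calls, and 1126 to 3276 of all. Same-numbered samples did not deviate together (r from −0.63 to 0.48 over the 4 comparisons), so the numbers were not taken as pairs. With the replicate block 1 member probe was called between CDPs and MDPs of PyMT mice (*Cd300c*, 1.01, adjusted p = 0.0405 by limma), beside 1502 of all tested probes. The 5′ *Ptprs* probe lost its call in CDPs with that block (adjusted p = 0.0754 by limma). The highest likeness to *Siglech*, 0.989 (*Gm10856*), became 0.903 by the unique probe (*Notch2*). With slide means removed that of *Gm10856* was 0.909, and *Pign* was highest (0.926).

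No called difference turned its sign. Uncalled ones did. With slide as a block, tumor changes in CDPs were −0.06 for the repeat-bearing *Siglech* probe and −0.17 for *Pacsin1*, in MDPs 0.28 for that *Siglech* probe and 0.13 for *Ccr9*, their difference −0.35 for that *Siglech* probe and −0.36 for *Ly6d*, and CDPs minus MDPs in PyMT mice −0.18 for that *Siglech* probe and 0.23 for the shared coding *Runx2* probe. With normexp, the MDP changes were −0.50 for the unique *Siglech* probe, whose MDP values were all undetected and carry no direction, and −0.42 for *Pacsin1*, the difference of changes 0.59 for *Pacsin1*, and CDPs minus MDPs −0.22 for *Pacsin1* in Normal mice and −0.03 for the 5′ *Ptprs* probe in PyMT mice. Quantile normalization and the deposited table gave 0.45 for *Ccr9* in MDPs and −0.06 for the 5′ *Ptprs* probe between progenitors of PyMT mice.

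With 1 array left out, the CDP changes ran from −0.39 to 0.97 (*Pacsin1*) and −0.77 to 0.06 (5′ *Runx2*). The MDP changes ran from −0.49 to 0.10 (repeat-bearing *Siglech*), −0.27 to 0.49 (unique *Siglech*, undetected), −0.97 to 0.24 (*Ccr9*) and −0.04 to 1 (*Pacsin1*). Their difference ran from −0.75 to 0.60 (*Pacsin1*) and −0.14 to 0.03 (5′ *Ptprs*), CDPs minus MDPs in Normal mice from −0.17 to 0.49 (repeat-bearing *Siglech*), and in PyMT mice from −0.35 to 0.34 (shared coding *Runx2*) and −0.01 to 0.10 (5′ *Ptprs*). The cause was not tested. The median tumor change of all probes in MDPs, −0.11, was 0.00 after quantile normalization. The difference of changes uses all 4 groups, so fitting fewer groups and the t-test were not run for it.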
